A study of Mus musculus with 6 samples.

Results

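The microRNAs described here are 7 that mark liver, gut and pancreas, the organs that arise from endoderm: mmu-miR-122a, mmu-miR-192, mmu-miR-194, mmu-miR-215, mmu-miR-216a, mmu-miR-217 and mmu-miR-375, written below without the prefix for mouse. They were chosen by name among the 334 mouse microRNA probes of the array, so 7 of 334 probes are members, each spotted 4 times. The array has no probe named simply miR-216, and the probe named miR-216a was taken, since the RefSeq gene Mir216a carries the older name as a synonym. The label of the set comes from where these microRNAs are known to be abundant, and the cells that hold them here were not examined. Only miR-122a of the 7 was measured above background in every sample, which shows that it was detected and not its cell type. Neither miR-216a nor miR-217 was measured above background on any array.

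The samples were mouse embryoid bodies, clumps of embryonic stem cells left to differentiate, at day 7. All cells came from strain 129S7/SvEv Brd-Hprt b-m2 and carried human BRCA1, a DNA repair protein, in 1 of 3 forms: unmutated (WT), or mutated to M1652I (MI) or to R1699Q (RQ), both missense changes within its BRCT repeats. Each form had 2 replicates, 6 arrays in all. The sources used here do not give whether replicates were separate cultures. They also do not give whether each form is 1 stem cell clone or whether the cells keep mouse Brca1. Each array carried the RNA of 1 sample in Cy3 and, per the labels, RNA of WT embryoid bodies in Cy5, which is called the reference below. No array had the dyes swapped, so a difference between dyes and one between RNAs cannot be told apart. The question of the series is which microRNAs differ between the mutant and the WT embryoid bodies.

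As background, a microRNA is a short RNA that guides the silencing machinery to messenger RNAs that pair with its seed, the stretch near its 5′ end. miR-122 is the dominant microRNA of hepatocytes, where it acts on cholesterol metabolism. miR-192, miR-194 and miR-215 are abundant in gut epithelium, liver and kidney, and are known targets of p53. miR-375 restrains insulin secretion in pancreatic beta cells and is needed for their mass, whereas miR-216a and miR-217 are enriched in the exocrine pancreas.

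The mature sequences show why miR-192 and miR-215 are described side by side and why miR-194 appears beside both. Capitals mark the seed (bases 2 to 8), and all are written 5′ to 3′ from RefSeq on GRCm38.p6.
miR-192: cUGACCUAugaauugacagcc
miR-215: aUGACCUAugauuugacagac
miR-194: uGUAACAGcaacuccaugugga
miR-216a: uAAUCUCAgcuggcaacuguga
miR-217: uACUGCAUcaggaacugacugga
miR-375: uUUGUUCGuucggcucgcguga
miR-192 and miR-215 share the seed UGACCUA. Over their 21 bases they differ at 3 positions, counted from 1 at the 5′ end of miR-192: C1A, A12U and C20A. The other 4 microRNAs printed have a seed each of their own. The miR-375 line is the hairpin stretch with which its probe pairs.

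miR-192 lies at chr19:6264857-6264877 and miR-215 at chr1:185313610-185313630, both on the + strand. miR-194 has a copy beside each of them, at chr19:6264658-6264679 and chr1:185313325-185313346, with 115 bases between the Mir194-2 and Mir192 genes and 195 between Mir194-1 and Mir215. The chromosome 1 pair lies within the protein-coding gene Iars2, and the probe of miR-194 cannot tell its copies apart. miR-216a, at chr11:28757018-28757039, and miR-217, at chr11:28763761-28763783, lie within the noncoding gene Gm40818, with 6644 bases between their genes. miR-375, at chr1:74900661-74900682 on the - strand, overlaps no other gene in the RefSeq table. 

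Each probe is 60 bases long, and its last 36 bases are a stem that all probes printed here share. The probes of the related pair show which bases each could detect; capitals mark the part that pairs with the microRNA.
miR-192 probe: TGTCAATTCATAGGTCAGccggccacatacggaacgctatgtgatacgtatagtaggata
miR-215 probe: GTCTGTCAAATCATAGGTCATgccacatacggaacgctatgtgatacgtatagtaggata
The miR-192 probe pairs with bases 1 to 18 and the miR-215 probe with bases 1 to 21. Of the 3 differing positions, C20A lies outside the part that the miR-192 probe reads. How far each probe also takes up the other microRNA was not tested.

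Net signals, the mean spot intensity minus the local background in arbitrary units, set what could be compared. A probe counts as measured on an array when a share of over 0.5 of its spots is well above background by the scanner's own test. In Cy3, the embryoid bodies themselves, miR-122a was measured on 6 of 6 arrays, miR-215 on 2, miR-192 on 1 and the other 4 members on 0. In Cy5, the reference, miR-122a, miR-192, miR-194 and miR-215 were measured on all 6, miR-375 on 3, and miR-216a and miR-217 on 0. So 5 of the 7 members passed the filter for testing (measured in either channel on at least 2 arrays). Of these, 3 passed only through the reference: miR-192, miR-194 and miR-375.

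**Figure D1:**
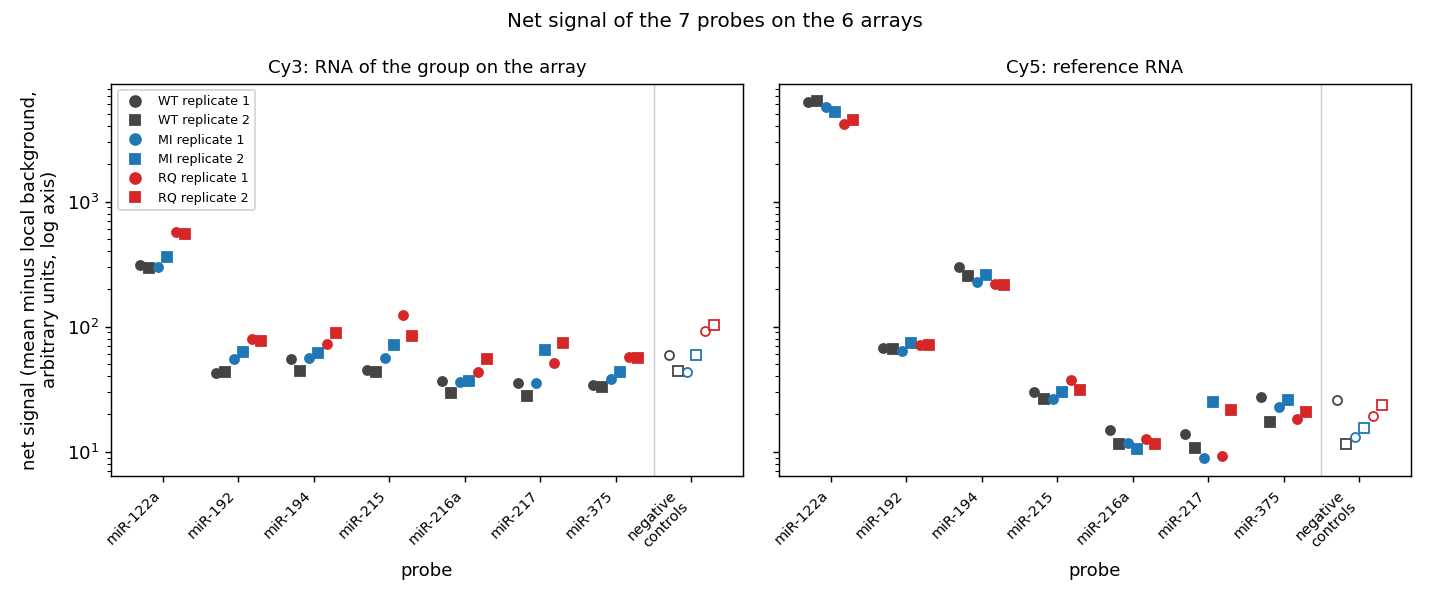
Net signal (arbitrary units, log axis) of the 7 probes in Cy3, the group's own RNA (left), and in Cy5, the reference (right); each point is 1 array, coloured by group with a shape for the replicate, and open points are the mean of the negative control spots. In Cy3 miR-122a stands above the negative controls on 6 of 6 arrays and miR-375 and miR-216a on 0, while in Cy5 miR-122a and miR-194 stand far above them.

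Across the whole array, 241 to 256 of the 334 probes were measured in Cy3 and 263 to 271 in Cy5. Replicates correlated at 0.987 (WT) to 0.994 (RQ) across microRNAs, which are not independent of one another. The mean net Cy3 signal of the negative control spots was 93.1 and 103 on the RQ arrays and 43.8 to 59.4 on the other 4. WT arrays occupied slide row 1 and all mutant arrays slide row 2, so that slide row and WT against mutant cannot be told apart. WT and MI arrays lay in slide columns 1 and 2, and RQ arrays in columns 3 and 4. Slide column and RQ against either other group thus cannot be told apart either. In tissue mixtures such as embryoid bodies, fewer cells of a type and less RNA per cell cannot be told apart either.

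None of the 5 tested members was called between the genotypes (limma, adjusted p under 0.05 over all tested probes; 40 of the 334 were too dim to test). In RQ minus WT 0 of 5 were called, against 21.4% of all tested probes. In MI minus WT 0 of 5 were called, against 15.6%, and in RQ minus MI 0 of 5, against 10.9%. At an unadjusted p under 0.05, miR-194 was the 1 member in RQ minus WT and in MI minus WT, and 0 members passed in RQ minus MI; over all tested probes 37.4%, 36.7% and 26.5% did. The median change of the 5 was 0.08 (log2) in RQ minus WT, 0.06 in MI minus WT and 0.02 in RQ minus MI, against 0.03, 0.11 and -0.10 over all tested probes. miR-192, miR-194 and miR-375 were tested only through the reference, and miR-215 was measured in Cy3 on 2 of 6 arrays. For these members an absence of calls, or a small change, is no measure of their level in the embryoid bodies. Both mutants are compared with the same WT arrays, and each comparison rests on 2 arrays against 2. The main exception to the absence of calls is miR-122a, which was called under another scaling of the arrays.

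**Figure D2:**
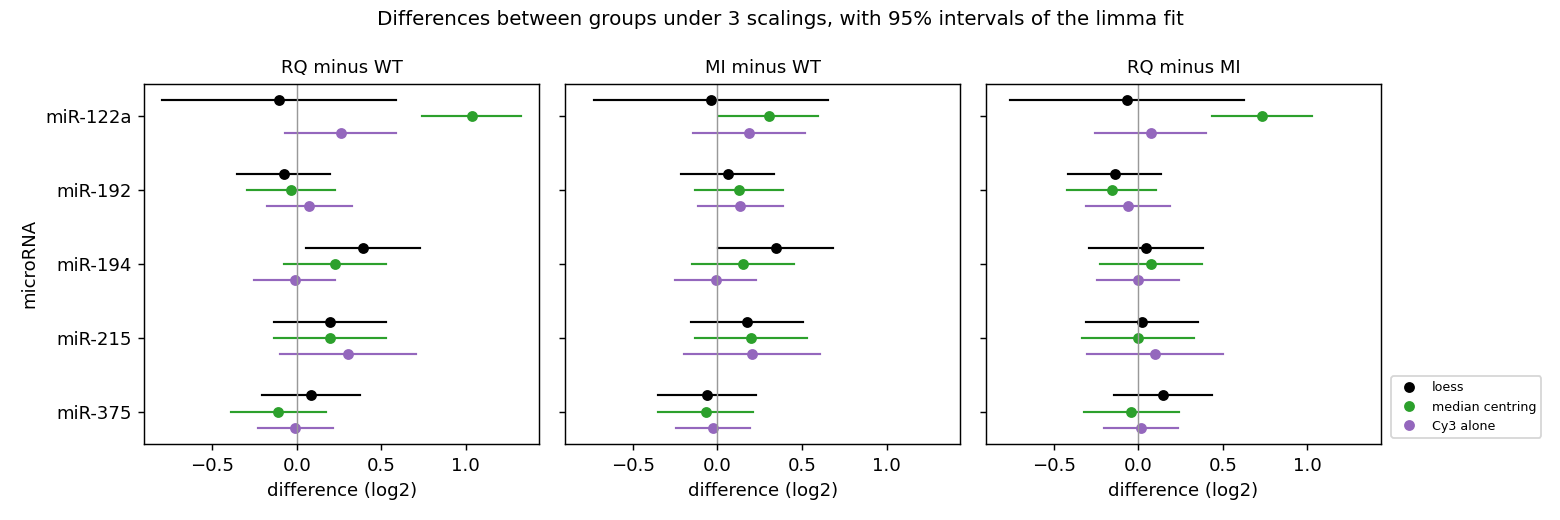
Difference between groups (log2) for the 5 tested members in each comparison; points are limma estimates and lines their 95% intervals, under loess, median centring and Cy3 alone. Intervals cross 0 for most members, while that of miR-122a under median centring lies between 0.74 and 1.33 in RQ minus WT.

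miR-122a, the hepatocyte microRNA, was the 1 member well above background in both channels on all 6 arrays. Its net Cy3 signal was 311 and 297 on the WT arrays, 301 and 361 on the MI arrays, and 567 and 552 on the RQ arrays. Both RQ arrays thus lay above the other 4, and WT and MI overlapped. The reference signal went the other way: net Cy5 was 6289 and 6305 on the WT arrays, 5725 and 5198 on the MI arrays, and 4134 and 4446 on the RQ arrays. Here the 3 groups did not overlap, although per the labels the same kind of RNA was in that channel on every array. The Cy5 signal held place 12 to 20 among 334 probes and the Cy3 signal place 95 to 125, with no saturated spot; these are positions only, since probes differ in how they bind.

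The RQ arrays were brighter in Cy3 for many probes. The RQ over WT ratio of mean net Cy3 was 1.84 for miR-122a and 1.35 for the median tested probe, and 18.03% of tested probes had a higher ratio than miR-122a. In Cy5 the ratio was 0.681 for miR-122a and 0.834 for the median tested probe, and 3.74% of tested probes had a lower one. The reference channel of miR-122a thus differed between the RQ and WT arrays by more than that of most probes.

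After loess, which removes a trend of the ratio with brightness within each array, the log2 ratio of Cy3 over Cy5 of miR-122a was -3.27 and -2.58 on the WT arrays, -3.25 and -2.67 on the MI arrays, and -3.11 and -2.94 on the RQ arrays. The groups overlapped, and the replicates of WT and of MI lay further apart than any of the group means. RQ minus WT was -0.10 ± 0.28 (log2, SE, 95% interval -0.79 to 0.59, limma adjusted p = 0.809), MI minus WT was -0.04 (adjusted p = 0.926) and RQ minus MI was -0.06 (adjusted p = 0.885).

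With each array's ratios centred on their median instead, miR-122a was higher in RQ. Its ratio was -4.49 and -4.39 on the WT arrays, -4.27 and -4.00 on the MI arrays, and -3.34 and -3.47 on the RQ arrays, with no overlap between groups. RQ minus WT was 1.03 ± 0.13 (SE, n = 2 arrays per group, limma adjusted p = 0.0014), where 22.8% of all tested probes were called and 16% were called higher. RQ minus MI was 0.73 (adjusted p = 0.0106, with 10.5% of all tested probes called) and MI minus WT 0.30 (adjusted p = 0.132, with 12.9% called). Median centring moved the median of all tested probes in RQ minus WT to 0.10.

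Both channels enter that difference. With Cy3 alone, quantile-normalised between arrays, RQ minus WT was 0.26 (95% interval -0.07 to 0.59, adjusted p = 0.183), where 31.3% of all tested probes were called and their median was at -0.17. With the scanner's own processed signals it was 0.42 (adjusted p = 0.149). So miR-122a had a positive difference under these 3 scalings and passed the test under median centring only. Loess put the log2 ratio of miR-122a above its median-centred value by 1.03 to 1.81 on the WT and MI arrays and by 0.22 to 0.53 on the RQ arrays. Before normalization the ratio was -4.235 to -3.77 on the WT and MI arrays, and -2.855 and -2.983 on the RQ arrays. Of the tested probes, 23 to 37 were brighter than miR-122a on average over both channels.

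**Figure D3:**
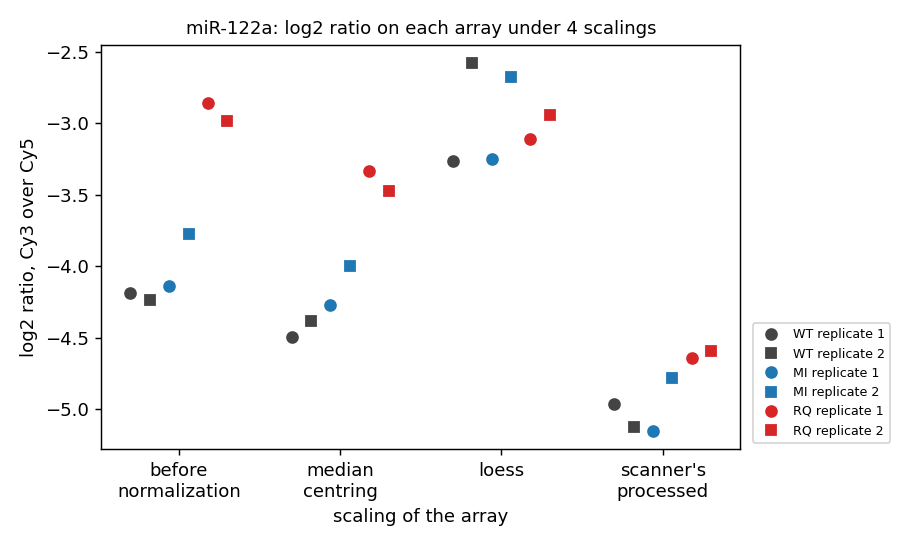
Log2 ratio of Cy3 over Cy5 of miR-122a on each of the 6 arrays before normalization, after median centring, after loess and from the scanner's processed signals; points are arrays, coloured by group. The RQ arrays lie above the other 4 before normalization, after median centring and, by less, with the processed signals, while after loess the 3 groups overlap.

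miR-192, which shares its seed with miR-215, was dim in the embryoid bodies. Its net Cy3 signal was 42.7 and 43.3 on the WT arrays, 55.5 and 62.5 on the MI arrays, and 80 and 76.3 on the RQ arrays, and it exceeded the mean of the negative controls of its own array on 2 of 6 arrays. Its reference signal was 63.5 to 74 on all 6. The loess ratio was -0.75 and -0.74 in WT, -0.61 and -0.75 in MI, and -0.76 and -0.87 in RQ. The Cy3 signal of miR-192 and of the negative controls was highest on the RQ arrays, whereas its ratio overlapped between the groups. RQ minus WT was -0.08 ± 0.11 (SE, adjusted p = 0.642), with a 95% interval of -0.35 to 0.20. MI minus WT was 0.06 (adjusted p = 0.716) and RQ minus MI -0.14 (adjusted p = 0.476).

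miR-194, encoded beside both miR-192 and miR-215, was measured in the reference on all 6 arrays and in Cy3 on none. Net Cy5 was 298 and 253 on the WT arrays, 226 and 257 on the MI arrays, and 220.5 and 214 on the RQ arrays. Net Cy3 was 55 and 44.6 on the WT arrays, 56.3 and 61.1 on the MI arrays, and 72.8 and 89.8 on the RQ arrays, above the negative controls' mean on 3 of 6. The loess ratio was -2.38 and -2.21 in WT, -1.82 and -2.08 in MI, and -1.96 and -1.84 in RQ, so both WT arrays lay below the other 4.

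That difference did not pass the correction over all tested probes. RQ minus WT was 0.39 ± 0.14 (SE, unadjusted p = 0.0302, limma adjusted p = 0.0914) and MI minus WT 0.34 ± 0.14 (unadjusted p = 0.0471, limma adjusted p = 0.131). RQ minus MI was 0.05 (adjusted p = 0.832). These differences rest on a Cy3 signal that was not well above background in any group, so they are no measure of its level there; with Cy3 alone RQ minus WT was -0.011 and MI minus WT -0.0096.

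miR-215 was near the limit in both channels. Net Cy3 was 44.98 and 43.05 on the WT arrays, 56.5 and 71.7 on the MI arrays, and 123 and 83.5 on the RQ arrays, and it was well above background on 1 MI and 1 RQ array. Net Cy5 was 26.3 to 37.4. The loess ratio was -0.14 and -0.12 in WT, 0.02 and 0.08 in MI, and 0.22 and -0.09 in RQ. RQ minus WT was 0.20 ± 0.13 (SE, adjusted p = 0.336) and MI minus WT 0.18 (adjusted p = 0.368), and the RQ replicates lay further apart than the RQ and WT means. RQ minus MI was 0.02 (adjusted p = 0.915).

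The pancreatic microRNAs were at or below the negative controls in the embryoid bodies. miR-216a had a net Cy3 signal of 36.6 and 29.4 on the WT arrays, 36.4 and 37 on the MI arrays, and 43.4 and 55.5 on the RQ arrays, below the negative controls' mean on all 6. miR-217 had 35.6 and 27.8 on the WT arrays, 35.5 and 65.4 on the MI arrays, and 51 and 74.7 on the RQ arrays, above that mean on 1 array. In Cy5 they read 10.6 to 14.8 and 8.93 to 24.9. Both were left untested. The probe of miR-216b, a near relative, was not measured on any array either, with net Cy3 of 30.4 to 92.

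miR-375, the beta cell microRNA, was not measured in Cy3 on any array. Over the spots that were kept, net Cy3 was 34.2 and 32.7 on the WT arrays, 38.3 and 43.1 on the MI arrays, and 57 and 56 on the RQ arrays, below the negative controls' mean on all 6. Net Cy5 was 17.2 to 27.5 and was measured on 1 WT and both MI arrays. The loess ratio was -0.32 and -0.13 in WT, -0.27 and -0.31 in MI, and -0.08 and -0.20 in RQ. RQ minus WT was 0.08 ± 0.12 (SE, adjusted p = 0.628), MI minus WT -0.06 (adjusted p = 0.728) and RQ minus MI 0.14 (adjusted p = 0.476).

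One of the 4 miR-375 spots read differently from the rest. The scanner marked the spot at grid row 54, column 5 as an outlier on all 6 arrays, and it was left out of the values above. Its mean Cy3 intensity was 186 and 220 on the WT arrays, 170 and 1640 on the MI arrays, and 2080 and 3020 on the RQ arrays. The other 3 spots of the same probe read 80.2 to 118 on every array. Over the array, 6 of 334 probes had a spot marked on all 6 arrays. With marked spots kept, RQ over the reference was 0.40 for miR-375 (adjusted p = 0.0261), where it was -0.14 without them.

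**Figure D4:**
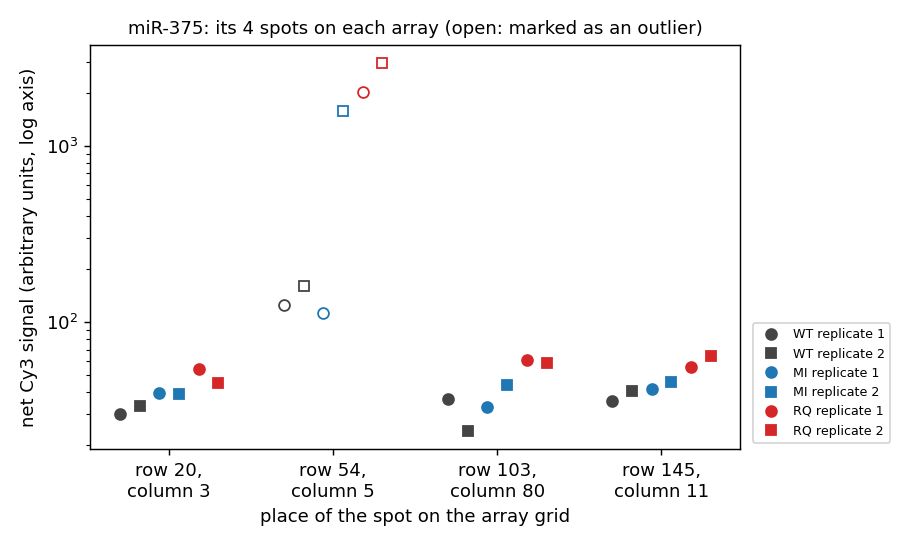
Net Cy3 signal (arbitrary units, log axis) of the 4 spots of the miR-375 probe, by their place on the array grid; each point is 1 array, and open points were marked as outliers by the scanner. The marked spot at row 54, column 5 reads above the other 3 on every array, and highest on both RQ arrays and MI replicate 2.

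Against the reference on the same array, miR-122a, miR-194 and miR-192 were called lower in all 3 groups (loess ratio). In WT 4 of 5 tested members were called lower than the reference (limma), where 42.5% of all tested probes were called lower and 88.4% in either direction (89.8% in RQ). The 4 were miR-122a, miR-194, miR-192 and miR-375, and miR-215 was not called. In MI the same 4 were called lower, again where 42.5% of all tested were, and in RQ 3 of 5 were (not miR-375 or miR-215), where 42.2% of all tested were. miR-192, miR-194 and miR-375 could be tested only because the reference was measured. That filter favours a lower ratio for them without fixing its sign, so these counts support nothing by themselves. The test is against 0, the centre that loess sets for each array, so it sets a member against the bulk of the probes and is no absolute level.

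For miR-122a both channels were measured on every array. The ratio averaged -2.92 ± 0.49 for WT, -2.96 ± 0.41 for MI and -3.02 ± 0.12 for RQ (log2, SD over 2 arrays), which is 7.58-fold, 7.78-fold and 8.14-fold lower in Cy3 (limma adjusted p = 1.72e-05, 1.58e-05 and 1.48e-05). The size depends on the scaling: under median centring the means were -4.44, -4.14 and -3.40. With the scanner's processed signals they were -5.04, -4.96 and -4.62. The loess ratios of miR-194, whose Cy3 was not well above background on any array, had means of -2.29, -1.95 and -1.90 (adjusted p = 2.24e-06, 4.41e-06 and 5.01e-06).

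miR-192 had mean ratios of -0.74 in WT, -0.68 in MI and -0.82 in RQ (adjusted p = 0.000153, 0.000229 and 9.16e-05) with loess. On the RQ arrays its mean net Cy3 signal was 78.1 and its mean net Cy5 signal 71.5, so the lower ratio there is relative to the centre of the array. miR-375 had -0.23, -0.29 and -0.14 (limma adjusted p = 0.0409, 0.0166 and 0.149). Its mean net Cy3 signal exceeded its mean net Cy5 signal in each group: 33.45 against 22.33 in WT, 40.68 against 24.28 in MI and 56.5 against 19.52 in RQ. The lower ratio of miR-375 is thus also relative to the centre of the array. With marked spots kept its ratio was -0.07 in WT (adjusted p = 0.645) and 0.11 in MI (adjusted p = 0.457), neither called. With loess on bright probes WT was at -0.19 and not called (adjusted p = 0.0661), while MI remained called (adjusted p = 0.0309). Under the other alternatives that tested miR-375 with all arrays, both calls remained. In RQ miR-375 was called lower under median centring (-0.37, limma adjusted p = 0.00343) and offset 10 (-0.38, adjusted p = 0.0246). The same held for the processed signals (-0.74, adjusted p = 0.0144) and the deposited table (-0.74, adjusted p = 0.0146). With marked spots kept it was called higher in RQ, as given above. Without WT replicate 1, or without any of the MI or RQ arrays, the WT call of miR-375 was lost, with adjusted p of 0.0623 to 0.269. Without either MI array its MI call was lost (adjusted p = 0.0846 and 0.123). miR-215 had -0.13, 0.05 and 0.07 (adjusted p = 0.238, 0.664 and 0.516). With the scanner's processed signals miR-215 was called lower as well, at -1.53, -1.10 and -1.20.

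The reference channel was bright in microRNAs of several tissues. On the WT arrays, where the labels name WT embryoid bodies for both dyes, all 10 tested stem cell microRNAs were above the reference, with a median log2 ratio of 5.13, and Cy5 was well above background on all 6 arrays for 2 of them. All 5 blood markers were below it (median -3.71), with summed net Cy5 of 72410 and 72620 on the WT arrays, most of it from miR-451, which was saturated in Cy5. All 6 neural markers were below it too (median -2.79), as were 4 of 5 muscle and heart markers (median -0.55). The 5 tested endoderm members had ratios from -2.92 to -0.13, where 47.3% of all tested probes were below 0, and 3 of the 5 were tested only through Cy5, so their sign is no pattern of its own. Summed over the 5 tested members, net Cy5 was 6668 to 6713 on the WT arrays, 5586 to 6064 on the MI arrays and 4481 to 4784 on the RQ arrays, most of it miR-122a. Ratios to the reference are thus given as measured on each array, and the part of the reference's make-up in them was not tested.

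**Figure D5:**
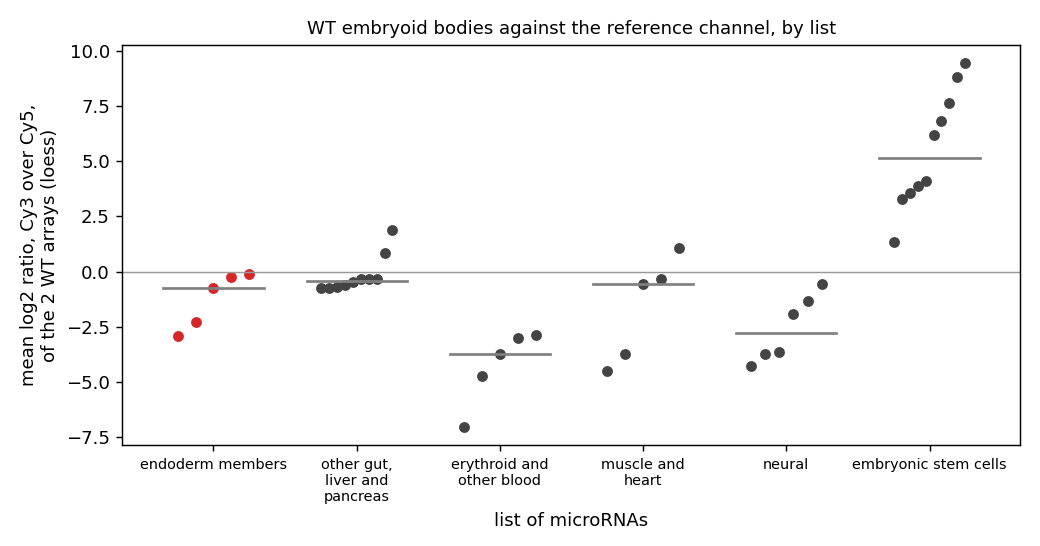
Mean log2 ratio of Cy3 over Cy5 (loess) on the 2 WT arrays for each tested microRNA of 6 lists; each point is a microRNA, the endoderm members in red, and grey bars are medians. The members lie between -2.92 and -0.13, the blood and neural lists are below 0, and the stem cell list is above 0 throughout.

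Other microRNAs of gut, liver and pancreas gave a mixed picture. Of 10 on the list, all were tested. In RQ minus WT 1 was called higher and 1 lower (median change -0.05), where 7.48% of all tested probes were called higher and 13.9% lower. In MI minus WT 2 were higher and 1 lower (median -0.20), against 9.18% and 6.46% of all tested. In RQ minus MI 0 were higher and 1 lower (median 0.09), against 3.06% and 7.82%. miR-7, abundant in pancreatic islets and neuroendocrine cells, rose by 0.94 ± 0.14 in RQ (SE, adjusted p = 0.00839) and by 1.56 ± 0.14 in MI (adjusted p = 0.00375) against WT, and RQ was below MI by 0.62 (log2, adjusted p = 0.039). Without RQ replicate 1 the RQ rise of miR-7 was 0.91 and not called (adjusted p = 0.0733), and without any MI or RQ array the RQ minus MI call was lost (adjusted p = 0.161 to 0.192), as it was under median centring (-0.15, adjusted p = 0.52). With Cy3 alone its difference in RQ minus WT was 0.20 (adjusted p = 0.309). It was 0.61 with the processed signals and with the deposited table, and not called (limma adjusted p = 0.138 and 0.139). The RQ minus MI call was also lost with both of these, loess on bright probes, offset 10, no background correction and the median of spots (adjusted p = 0.0536 to 0.262). The MI minus WT call of miR-7 remained under every alternative that kept all arrays.

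miR-200a, which keeps epithelial cells from losing their junctions, fell by 1.44 ± 0.18 in RQ (adjusted p = 0.00808) and by 1.59 ± 0.18 in MI (adjusted p = 0.00464). Under median centring the RQ difference was -0.46 and remained called (adjusted p = 0.0464). Its relative miR-200b was at -0.23 in RQ and -0.37 in MI and not called, but was called in MI under median centring (-0.68, adjusted p = 0.0179). miR-184 was higher in MI by 0.64 ± 0.16 (adjusted p = 0.0424). This call was lost under median centring (0.09, adjusted p = 0.679) and without any array other than WT replicate 2, and the difference was -0.26 with the processed signals. It was also lost with Cy3 alone, loess on bright probes, offset 10 and marked spots kept (limma adjusted p = 0.0628 to 0.120). The call remained with no background correction, the median of spots, the Cy3 filter and no filter. miR-802, of liver and pancreas, was not measured in Cy3 on any array, as miR-375 was not.

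For each tested member, the 2 other tested probes with the smallest mean absolute difference in loess ratio over the 6 arrays were sought. For miR-122a they were miR-133a* (0.22) and miR-29b (0.26), for miR-192 miR-137 (0.05) and miR-32 (0.08), and for miR-194 miR-218 (0.09) and miR-30a-5p (0.15). miR-215 was closest to miR-551b (0.08) and miR-129-5p (0.09), and miR-375 to miR-326 (0.06) and miR-802 (0.09). The match of miR-122a was the loosest of the 5. Several of these probes are dim in Cy3, such as miR-133a* with a mean net signal of 41.9 and miR-802 with 41.1, and their likeness is a description of the ratios.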

How the data were processed

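Per the file headers, 6 2-colour arrays were read with Agilent Feature Extraction 9.5.1.1. The deposited files give linear intensity values of both dyes for 1932 of 14712 features, and a log10 ratio of processed Cy5 over Cy3, per the file headers; the features not listed were not analysed here. The deposited value table equals minus that log10 ratio, so its direction and scale are settled and its column medians are 0. Per the labels, a ligase joined the dyes to the 3′ ends of total RNA.

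Normexp (offset 50) was followed by loess in each array (control spots and spots marked as outliers at weight 0), marked spots were removed, and spots of a probe averaged as log2 Cy3 over Cy5. limma 3.58.1 (R 4.3.3; lmFit, eBayes) was fitted to all arrays over the probes that had, in Cy3 or in Cy5, a share of over 0.5 of their spots well above background on 2 arrays or more (40 of 334 had not), with Benjamini-Hochberg adjustment; 1 slide and 1 scan held all arrays. The script was tested on simulated data. The labels do not say whether replicates were separate cultures, so p-values measure only how these samples vary, which may be technical, and 2 arrays per group limit the precision. Alternatives were median centring, Cy3 alone (quantile), the processed signals, the deposited table, loess on bright probes, offset 10, no background correction, marked spots kept, the median of spots, a Cy3 filter, no filter, leaving out each array, and the replicate number as a block. Sequences came from RefSeq tables on GRCm38.p6, by name, and are shown for 6 of 7 members. Members, lists and the naming rule (all members, the 2 most alike probes of each, and called microRNAs of the list of other gut, liver and pancreas microRNAs with up to 2 others) were chosen with earlier results of these data known.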

Additional observations from a re-analysis of the deposited data

Results flagged for a closer look

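The miR-375 spot at grid row 54, column 5, which the scanner marked as an outlier and which entered only the alternative that keeps such spots, carried a mean Cy3 intensity of 1640 on MI replicate 2, 2080 on RQ replicate 1 and 3020 on RQ replicate 2. On the WT arrays the same spot read 186 and 220, and on MI replicate 1 it read 170. It stands out because this signal in data left out of the main comparisons lies above that of the WT arrays. The Cy5 intensity of the spot was 119 and 131 on the WT arrays, 122 and 476 on the MI arrays, and 447 and 713 on the RQ arrays, so both channels were bright on the same 3 arrays, while the other 3 spots of the probe stayed at 80.2 to 118 in Cy3.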

How the results depend on the processing

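Of the comparisons between genotypes, the count of members called stayed at 0 under every alternative run except median centring, where it was 1 in RQ minus WT and 1 in RQ minus MI, miR-122a in both. Over all tested probes, RQ minus MI gave 53 calls with Cy3 alone, 7 with no background correction and 14 with outlier spots kept, in place of 32. Against the reference, 5 members were called lower in RQ with the processed signals and 5 with the deposited table, in place of 3; over all tested probes 54.1% were then called lower under either, in place of 42.2%, with a median log2 ratio of -0.76 and -0.75. With the Cy3 filter 2 members were left to test and 1 was called in each of WT, MI and RQ, where 37.4%, 37.8% and 38.2% of all tested probes were called lower. The cause of each difference was not tested, apart from the Cy3 filter, which tests fewer probes.

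Signs turned mostly at small values. miR-122a was at 1.03 (RQ minus WT), 0.30 (MI minus WT) and 0.73 (RQ minus MI) with median centring, at 0.26, 0.19 and 0.074 with Cy3 alone, at 0.42, 0.078 and 0.35 with the processed signals, and at 0.42, 0.079 and 0.34 with the deposited table. It was also at 0.063 in RQ minus MI with loess on bright probes, at 0.12 in RQ minus WT and 0.16 in RQ minus MI with offset 10, and at 0.0071 in MI minus WT with no background correction. miR-192 in RQ minus WT was at 0.074 with Cy3 alone, 0.17 with the processed signals, 0.17 with the deposited table and 0.0014 with offset 10. miR-194 with Cy3 alone was at -0.011, -0.0096 and -0.0011 in RQ minus WT, MI minus WT and RQ minus MI. miR-215 in RQ minus MI was at -0.11 with the processed signals, -0.11 with the deposited table and -0.013 with outlier spots kept, and against the reference at -1.10 in MI and -1.20 in RQ with both the processed signals and the deposited table. miR-375 was at -0.11 in RQ minus WT and -0.040 in RQ minus MI with median centring, at -0.0068 in RQ minus WT with Cy3 alone, and at 0.092 in RQ over the reference with loess on bright probes. With outlier spots kept it was at 0.18 in MI minus WT, 0.11 in MI over the reference and 0.40 in RQ over the reference. miR-184 in MI minus WT was at -0.26 with the processed signals and -0.26 with the deposited table. The cause was not tested.

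Leaving out 1 array at a time gave 5 to 60 calls in RQ minus WT (5 without RQ replicate 1 and 40 without RQ replicate 2), 6 to 63 in MI minus WT (28 without WT replicate 1, 27 without each RQ array, 19 without MI replicate 2 and 6 without MI replicate 1), and 0 to 48 in RQ minus MI (1 without RQ replicate 1, and 0 without RQ replicate 2 or either MI array). The fit then assumes that a lone array varies like the other groups. Over these fits miR-122a ranged from -0.45 to 0.24 in RQ minus WT, from -0.38 to 0.30 in MI minus WT and from -0.35 to 0.22 in RQ minus MI. miR-375 ranged from -0.0083 to 0.17 in RQ minus WT and from -0.15 to 0.030 in MI minus WT, and miR-192 from -0.0083 to 0.13 in MI minus WT. In RQ minus MI miR-194 ranged from -0.084 to 0.18 and miR-215 from -0.13 to 0.17, and miR-215 in RQ over the reference from -0.085 to 0.22.

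With the replicate number as a block, 59 probes were called in RQ minus WT, 39 in MI minus WT and 38 in RQ minus MI, and 0 members in each; the MI call of miR-184 was lost (adjusted p = 0.0563). The numbers share only a number: deviations from the group means correlated at 0.18 (WT and MI), 0.12 (WT and RQ) and 0.04 (MI and RQ) over the tested probes, and no label ties same-numbered samples. Signal over background limits 6 of the 7 members in Cy3.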
